A study of Mus musculus with 31 samples.

Results

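The 9 genes described here make, load, take up and break down the transmitter GABA (γ-aminobutyric acid), set the chloride gradient its receptors work on, or belong to the benzodiazepine-binding system. They are Gad1, Gad2, Slc32a1, Slc6a11, Abat, Slc12a2, Slc12a5, Dbi and Tspo. They were chosen by name for their roles and not by a rule on measured values, though earlier results of these data were known. All 9 were found among the 24062 gene names of the P10 and 8-week tables and in the culture tables, so in each of 21 RNA sequencing libraries. The benzodiazepine midazolam (MDZ) acts on GABA-A receptors, and the study asked what it does to neural stem cells.

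The 15 mouse libraries came from EGFP-positive cells sorted from the hippocampal dentate gyrus of C57BL/6 mice carrying Nestin-EGFP, a reporter for stem cells and their recent offspring. Pups had been injected intraperitoneally on postnatal days 7, 8 and 9 with midazolam (10 mg/kg) or with water. MDZ P10 and Control P10 were taken at postnatal day 10, with 50000 cells of 1 mouse behind each library. RUN MDZ 8w, MDZ 8w and Control 8w were taken at 8 weeks from about 30000 cells pooled from 3 to 5 mice, RUN MDZ 8w from exposed mice that had a running wheel, and unexposed runners were not analysed here. Egr1 culture and Control culture were neural stem cells of ICR wild-type mice, grown from embryonic day 11 cortex with FGF and EGF for more than 20 passages. Both carried a lentivirus for the M2rtTA transactivator, and Egr1 culture also carried a lentivirus for Flag-tagged Egr1, a transcription factor that neuronal activity induces. Each group had 3 libraries, the labels do not say whether the culture samples were separate cultures, and p-values measure only the spread between these samples.

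GABA is made from glutamate by the decarboxylases that Gad1 and Gad2 encode, loaded into vesicles by the carrier encoded by Slc32a1, cleared from the extracellular space by membrane transporters such as Slc6a11 (GAT3, best known from astrocytes) and broken down in mitochondria by GABA transaminase (Abat). GABA-A receptors are chloride channels, so the effect of GABA on a cell depends on its chloride gradient, which Slc12a2 (NKCC1, an importer) and Slc12a5 (KCC2, the neuronal exporter) set in opposite directions. Immature neurons and many progenitors are known for high Slc12a2 and low Slc12a5, which leaves GABA depolarizing. Dbi encodes the diazepam-binding inhibitor, an acyl-CoA-binding protein whose peptides modulate GABA-A receptors and which is abundant in neural stem cells. Tspo encodes the mitochondrial translocator protein, a benzodiazepine-binding site separate from the GABA-A receptor.

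In RefSeq's mouse assembly GRCm38.p6 all 9 genes are protein-coding. Gad1 lies at chr2:70561303-70602014, Gad2 at chr2:22621015-22693877, Slc32a1 at chr2:158607260-158615747, Slc12a5 at chr2:164960846-164999731, Slc6a11 at chr6:114131241-114249886, Abat at chr16:8513429-8621568, Dbi at chr1:120113280-120121096 and Tspo at chr15:83563573-83574203. RefSeq promoter windows, which run from 250 bases before to 50 after a transcript start, were at hand for 6 of the 9 genes. None was at hand for Abat, Tspo or Slc12a2. The windows were searched on both strands for GCGNGGGCG, the letters of the Egr1 binding motif. Of 32851 mouse promoter windows 5.55% held these letters, and of 27025 genes 6.27% held them in a window. Of the 6 genes, Gad1 alone held a match, from base -7 to base 2 around the transcript start and on the strand opposite to the gene, while no window of Gad2, Slc32a1, Slc6a11, Slc12a5 or Dbi held these letters. The windows of the glutamate decarboxylase genes are shown 5′ to 3′ on the gene's strand, with the match in capitals, because these genes share a reaction and Gad1 was the one detected in culture. They are chr2:70561879-70562178 (plus strand) for Gad1 and chr2:22622077-22622376 (plus strand) for Gad2. A match is a string of letters and no measured binding.
Gad1 promoter: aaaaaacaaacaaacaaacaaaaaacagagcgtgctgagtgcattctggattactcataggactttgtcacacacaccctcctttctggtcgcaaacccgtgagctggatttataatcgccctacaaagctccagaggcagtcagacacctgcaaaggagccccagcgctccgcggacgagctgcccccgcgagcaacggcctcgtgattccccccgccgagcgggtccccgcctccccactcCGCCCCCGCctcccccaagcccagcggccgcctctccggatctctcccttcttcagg
Gad2 promoter: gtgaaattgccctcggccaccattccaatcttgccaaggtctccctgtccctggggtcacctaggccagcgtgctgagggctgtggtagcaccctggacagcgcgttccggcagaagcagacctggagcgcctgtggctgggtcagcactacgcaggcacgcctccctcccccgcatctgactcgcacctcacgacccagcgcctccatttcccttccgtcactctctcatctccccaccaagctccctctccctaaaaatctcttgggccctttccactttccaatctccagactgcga

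Depth was known only in part, because the tables hold FPKM (P10) or TPM (8 weeks and culture) and no counts. P10, MDZ 8w, RUN MDZ 8w and culture libraries listed 15382 to 18470 genes above 0, against 11163 to 11397 in Control 8w. The share of detected genes found in both of a pair of replicates was 97.43% for Control 8w replicates 2 and 3 and 77.81% to 92.87% for the other pairs, and these 2 libraries were counted as 1 sample, so Control 8w had n = 2. The spread of log2 ratios between replicates 2 and 3 was 0.265 (robust SD), less than in the other 8-week pairs (0.342 to 1.44) and more than in P10 and culture pairs (0.102 to 0.17). Of 7534 genes at 20 TPM or more in all 6 MDZ 8w and RUN MDZ 8w libraries, 462 were listed at 0 in at least 1 Control 8w library, so a 0 there can be a failed estimate. Markers of radial glia-like stem cells summed to 1072 to 1571 FPKM at P10 and 4772 to 5767 TPM in culture, and at 8 weeks to 1836 to 2165 TPM in RUN MDZ 8w, 2143 to 3561 TPM in MDZ 8w and 1320 to 1512 TPM in Control 8w. Of the 8 only Tfap2c was listed at 0, in 2 Control culture libraries. Neuroblast and immature granule neuron markers summed to 2795 to 2985 TPM in RUN MDZ 8w, 2589 to 3789 TPM in MDZ 8w and 4463 to 4761 TPM in Control 8w. Mature oligodendrocyte markers summed to 1106 to 2480 FPKM at P10, and at 8 weeks to 2395 to 3600 TPM in RUN MDZ 8w, 189.4 to 907.6 TPM in MDZ 8w and 254.6 to 424.4 TPM in Control 8w, and all 7 rose in RUN MDZ 8w against Control 8w. The part of these shifts between the 8-week groups in the values of the 9 genes was not tested. In bulk samples, fewer cells of a type and less RNA per cell cannot be told apart.

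**Figure D1:**
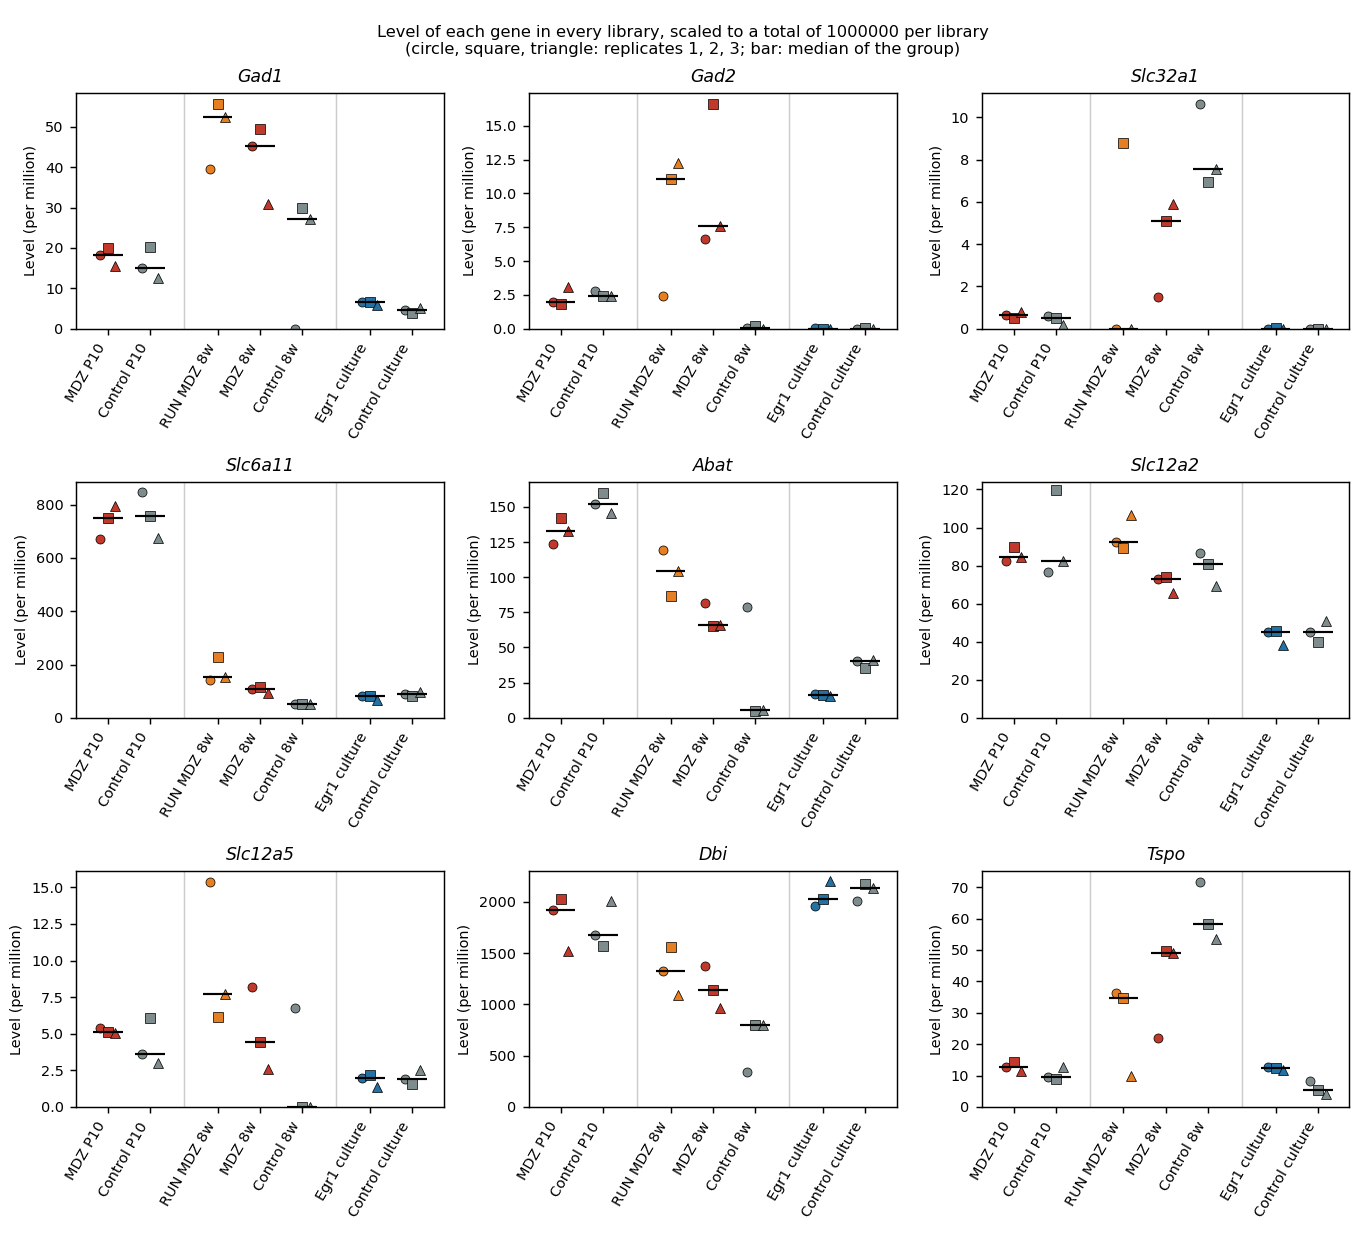
Level of each of the 9 genes in every library (vertical axis, scaled to the same total in each library; P10 values are rescaled FPKM and the others TPM), by group, with a marker shape for each replicate number and a bar at the median of the 3 libraries. Dbi stands between 345 and 2209 TPM at 8 weeks and in culture, Gad2 and Slc32a1 lie at or near 0 in culture, and Gad1 and Abat each have Control 8w libraries far apart.

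Dbi was the most abundant of the 9 genes in every library, followed at P10 by Slc6a11, and Gad2 and Slc32a1 were the scarcest at P10 and in culture. Dbi ranked 18 to 30 among all genes by level at P10, 24 to 59 in RUN MDZ 8w and MDZ 8w, 91 to 452 in Control 8w and 34 to 40 in culture. Slc6a11 ranked 84 to 124 at P10, 728 to 2657 in RUN MDZ 8w and MDZ 8w, 4852 to 5112 in Control 8w and 1885 to 2590 in culture. With P10 libraries rescaled to the total of the TPM libraries, Slc6a11 averaged 738.1 ± 63.0 in MDZ P10 and 758.6 ± 86.2 in Control P10 (SD, n = 3 each), above every library of the other tables. Abat averaged 132.8 ± 9.0 in MDZ P10 and 152.4 ± 7.3 in Control P10 on that scale. The 3 tables were normalized separately, so these levels across ages and culture were not tested.

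At P10, the day after the last injection, no change in the 9 genes passed the test. Gad2 averaged 0.566 ± 0.154 FPKM in MDZ P10 mice and 0.618 ± 0.044 FPKM in Control P10 mice, and Slc32a1 averaged 0.158 ± 0.032 FPKM in MDZ P10 mice and 0.103 ± 0.055 FPKM in Control P10 mice (SD, n = 3 each). Both were below the mean of 1 FPKM that a test required, which left 7 genes. With limma on log2(FPKM + 1), 0 of the 7 passed at an adjusted p below 0.05, against 0.00774% of the 12914 genes tested. An unadjusted p below 0.05 was reached by 1 of the 7 (Abat), against 1575 of the 12914 genes. The median log2 fold change of the 7, MDZ P10 over Control P10, was 0.08, against 0.01 for all genes tested.

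Abat was the single gene of the 7 whose P10 groups did not overlap, against 18.8% of all genes tested. It stood at 31.3, 35.3 and 32.2 FPKM in MDZ P10 mice and at 36.6, 38.7 and 35.9 FPKM in Control P10 mice. Every exposed mouse lay below every control mouse, by a log2 fold change of -0.17 ± 0.06 (SE, unadjusted p = 0.0247 and adjusted p = 0.353 with limma). Slc6a11, which takes GABA up, had 169.3, 186.2 and 192.8 FPKM in MDZ P10 mice and 204.2, 183.3 and 166.2 FPKM in Control P10 mice. Its groups overlapped, and the 95% interval of its log2 fold change ran from -0.22 to 0.20.

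Gad1 had 4.6, 4.95 and 3.74 FPKM in MDZ P10 mice and 3.63, 4.91 and 3.10 FPKM in Control P10 mice, an overlap with a log2 fold change of 0.16 ± 0.14 (SE, adjusted p = 0.664 with limma). The chloride importer Slc12a2 had 20.9, 22.3 and 20.5 FPKM in MDZ P10 mice and 18.5, 29.0 and 20.4 FPKM in Control P10 mice. The exporter Slc12a5 had 1.35, 1.27 and 1.22 FPKM in MDZ P10 mice and 0.876, 1.47 and 0.738 FPKM in Control P10 mice. For both carriers Control P10 replicate 2 was the highest library and the groups overlapped. Slc12a5 amounted to 6.49%, 5.70% and 5.96% of Slc12a2 in MDZ P10 and to 4.73%, 5.05% and 3.61% in Control P10, so the exporter was far below the importer in each mouse.

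Dbi had 484, 505.8 and 369.8 FPKM in MDZ P10 mice and 404.4, 379.1 and 496.3 FPKM in Control P10 mice, and the groups overlapped widely. Tspo had 3.24, 3.55 and 2.76 FPKM in MDZ P10 mice and 2.31, 2.16 and 3.17 FPKM in Control P10 mice. Exposed libraries 1 and 2 were above all controls and library 3 was not, and the interval of the Tspo log2 fold change ran from -0.04 to 0.53 (adjusted p = 0.463 with limma). Of 74 other genes of GABA, glutamate and chloride handling listed for comparison, 58 were tested at P10. None passed, against 0.00774% of all 12914 genes tested, and 3 of the 58 had an unadjusted p below 0.05 with limma, against 1575 of all genes.

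At 8 weeks, levels of several of the 9 genes stood higher in exposed than in unexposed mice, and the 3 changes that passed were in RUN MDZ 8w against Control 8w: Slc6a11, Dbi and Gad2, the last with the opposite sign after quantile normalization. All 9 genes were tested on log2(TPM + 1) in 1 limma fit of the 3 groups, whose comparisons share the Control 8w and MDZ 8w libraries. Running and midazolam exposure both differ between RUN MDZ 8w and Control 8w, so their parts cannot be told apart in that comparison. In RUN MDZ 8w against Control 8w 3 of 9 passed, all higher, against 11.3% of 15264 genes, and 7 of 9 had groups that did not overlap (6 higher, 1 lower), against 35% of all genes. In MDZ 8w against Control 8w 0 of 9 passed, against 5.13%. There, 4 of 9 had an unadjusted p below 0.05 with limma, against 3476 of 15264 genes. With Control 8w replicates 2 and 3 averaged, 7 of 9 had groups that did not overlap (4 higher, 3 lower), against 39.1%. One of the 3 lower, Slc12a2, overlapped when these replicates were kept apart. In RUN MDZ 8w against MDZ 8w 0 of 9 passed, against 0.157%. At an unadjusted p below 0.05 with limma stood 2 of 9, against 1523 of 15264 genes. The groups of 3 of 9 did not overlap, all higher, against 24.9%. The median gene also lay above 0 in the comparisons with Control 8w. The median log2 fold change was 1.71 for the 9 genes and 0.51 for all genes tested in RUN MDZ 8w against Control 8w, and 1.02 for the 9 and 0.36 for all in MDZ 8w against Control 8w. After quantile normalization the medians over all genes were -0.09 and -0.06.

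**Figure D2:**
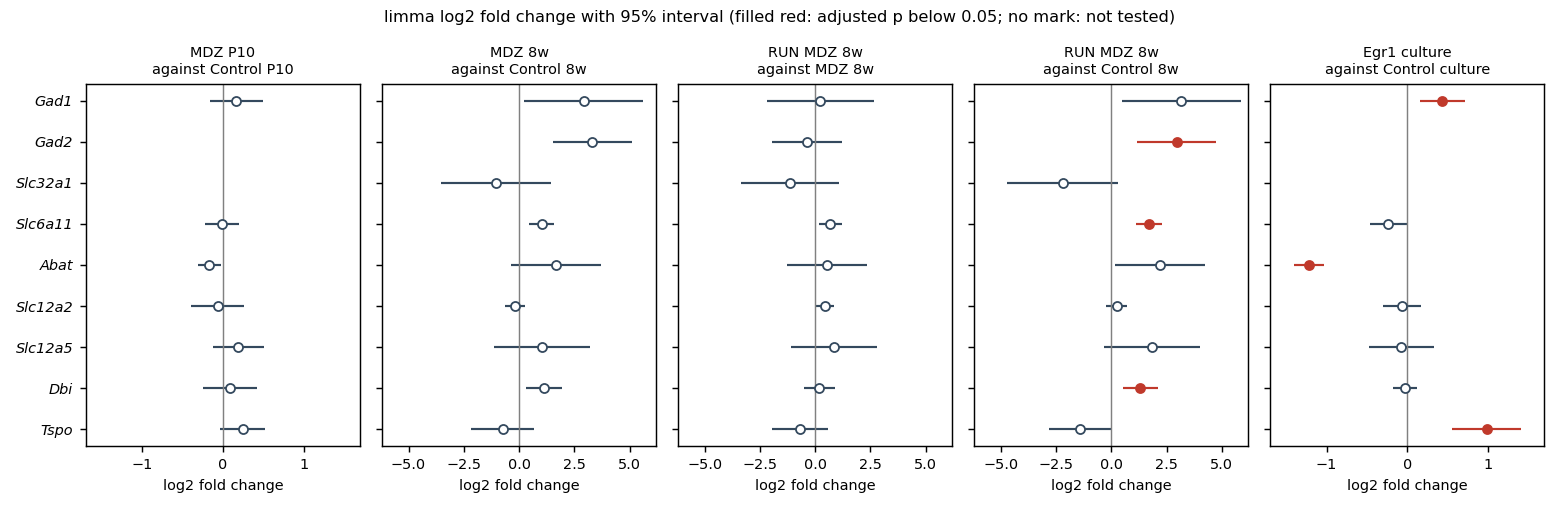
limma log2 fold changes (horizontal axis) of the 9 genes with 95% intervals in the 5 comparisons, on value + 1, with filled red marks at an adjusted p below 0.05. At 8 weeks the filled marks are Gad2, Slc6a11 and Dbi in RUN MDZ 8w against Control 8w (2.96, 1.71 and 1.32, Gad2 turning to -0.49 with quantile normalization), and in culture Gad1, Abat and Tspo (0.43, -1.22 and 0.99).

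Slc6a11, the GABA transporter GAT3, had 142.2, 229 and 153.9 TPM in RUN MDZ 8w, 108.3, 114.7 and 94.6 TPM in MDZ 8w and 50.3, 52.3 and 53.6 TPM in Control 8w. The 3 groups did not overlap, in the order RUN MDZ 8w, MDZ 8w, Control 8w from high to low. Group means were 175.0 ± 47.1 TPM in RUN MDZ 8w (SD, n = 3), 105.9 ± 10.3 TPM in MDZ 8w (SD, n = 3) and 51.65 ± 1.86 TPM in Control 8w (SD, n = 2). Slc6a11 rose in RUN MDZ 8w against Control 8w by a log2 fold change of 1.71 ± 0.25 (SE, adjusted p = 0.00632 with limma). This held without each library in turn (adjusted p 0.00423 to 0.0218), but not with these groups fitted alone (adjusted p = 0.0846) or with library quality weights (adjusted p = 0.319).

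For MDZ 8w against Control 8w the log2 fold change of Slc6a11 was 1.02 ± 0.25 (SE) and missed the threshold at an adjusted p of 0.057 with limma. It passed without Control 8w replicate 1 (adjusted p = 0.0474) and without RUN MDZ 8w replicate 2 (adjusted p = 0.03). For RUN MDZ 8w against MDZ 8w it was 0.69 ± 0.22 (SE, adjusted p = 0.322 with limma), with an interval from 0.18 to 1.2.

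The astrocyte marker list stood in the same order of groups as Slc6a11 at 8 weeks. Its 9 genes summed to 2932 to 3747 TPM in RUN MDZ 8w, 2052 to 2316 TPM in MDZ 8w and 1036 to 1443 TPM in Control 8w, with Aldh1l1 and Gjb6 listed at 0 in Control 8w replicate 1 and none at 0 in the exposed groups. Of the 9 markers, 7 rose in RUN MDZ 8w against Control 8w and 1 in MDZ 8w against Control 8w. Within Control 8w, replicate 1 had the highest astrocyte sum (1443 TPM) and the lowest Slc6a11 (50.3 TPM). The part of astrocyte RNA in the Slc6a11 result was not tested.

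Abat, the GABA-degrading transaminase, had 119.7, 86.3 and 104.1 TPM in RUN MDZ 8w, 81.3, 65.3 and 66.1 TPM in MDZ 8w and 78.7, 5.19 and 5.29 TPM in Control 8w. Running mice lay above both other groups, while MDZ 8w overlapped Control 8w through Control 8w replicate 1 alone. No Abat difference passed (log2 fold change 2.21 ± 0.88, adjusted p = 0.152, in RUN MDZ 8w and 1.68 ± 0.88, adjusted p = 0.298, in MDZ 8w, each against Control 8w, SE, limma). Without Control 8w replicate 1 they were 4.05 (adjusted p = 7.4e-05) in RUN MDZ 8w and 3.52 (adjusted p = 0.000135) in MDZ 8w, with the remaining controls counted as 1 sample, which the fit takes to be as variable as the exposed groups.

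The decarboxylase genes differed in their 8-week pattern from the vesicle carrier Slc32a1. Gad1 had 39.5, 55.6 and 52.4 TPM in RUN MDZ 8w, 45.2, 49.5 and 30.8 TPM in MDZ 8w and 0.0457, 29.8 and 27.2 TPM in Control 8w. Every exposed library lay above every Control 8w library, and Control 8w replicate 1 was near 0. The log2 fold change of Gad1 was 3.16 ± 1.16 in RUN MDZ 8w and 2.92 ± 1.16 in MDZ 8w against Control 8w (SE, adjusted p = 0.127 and 0.189 with limma). Without Control 8w replicate 1 these values were 0.75 in RUN MDZ 8w and 0.51 in MDZ 8w (adjusted p = 0.147 and 0.33).

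Gad2 had 2.43, 11.1 and 12.2 TPM in RUN MDZ 8w and 6.61, 16.6 and 7.61 TPM in MDZ 8w, whereas Control 8w replicates 1 and 2 had 0.0263 and 0.164 TPM and replicate 3 was listed at 0. All exposed libraries exceeded all controls, and RUN MDZ 8w overlapped MDZ 8w. On log2(TPM + 1) Gad2 rose in RUN MDZ 8w against Control 8w by 2.96 ± 0.77 (SE, adjusted p = 0.0473 with limma), a value that turned to -0.49 under quantile normalization. The call was also lost without any MDZ 8w library (adjusted p 0.0772 to 0.0932), without RUN MDZ 8w replicate 2 or 3 (0.0989 and 0.114) and without Control 8w replicate 3 (0.0504). In MDZ 8w against Control 8w the value was 3.32 ± 0.77 (SE, adjusted p = 0.0507 with limma), which passed without Control 8w replicate 1 (0.0373), Control 8w replicate 2 (0.0468) or RUN MDZ 8w replicate 1 (0.0332), missed it without any of the other 6 libraries, and was 0.18 (adjusted p = 0.919) under quantile normalization.

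Slc32a1, the vesicular GABA carrier, had a listed 0, 8.77 TPM and a listed 0 in RUN MDZ 8w, 1.48, 5.11 and 5.90 TPM in MDZ 8w and 10.6, 6.92 and 7.55 TPM in Control 8w. All MDZ 8w libraries lay below all Control 8w libraries, the reverse of the order of Gad1 and Gad2. Its log2 fold change was -1.06 ± 1.08 in MDZ 8w and -2.20 ± 1.08 in RUN MDZ 8w against Control 8w (SE, adjusted p = 0.592 and 0.228 with limma). The comparison of RUN MDZ 8w with Control 8w passed at -3.29 (adjusted p = 0.0348) without RUN MDZ 8w replicate 2.

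Interneuron markers, which label cells that use these genes for transmission, were uneven at 8 weeks. The 14 markers summed to 859 to 987.5 TPM in RUN MDZ 8w, 653.8 to 682.6 TPM in MDZ 8w and 592.6 to 1070 TPM in Control 8w, with Calb2 (also a marker of immature granule neurons) the main part. Dlx1 (7.73 to 88.7 TPM) and Kcnip1 (6.82 to 30.5 TPM) were present in all 9 libraries. Sst was listed at 0 in all 9 libraries, and Pvalb, Vip, Lhx6, Dlx6 and Cck in all 3 Control 8w libraries. The number of the 14 listed at 0 was 4 to 6 in RUN MDZ 8w, 2 to 5 in MDZ 8w and 7 to 9 in Control 8w. Dlx2, a factor of GABAergic precursors, had 4.64, 14.4 and 20.3 TPM in RUN MDZ 8w, 17.9, 44.2 and 24.6 TPM in MDZ 8w, whereas Control 8w replicate 1 had 90.5 TPM and replicates 2 and 3 were listed at 0. Nxph1 was at 0.0828 TPM in Control 8w replicate 1 and between 39.4 and 230 TPM in the other 8 libraries, and Reln was listed at 0 in Control 8w replicate 1 and had 6.09 and 7.03 TPM in replicates 2 and 3. Npy had a listed 0, 19.6 and 52.4 TPM in RUN MDZ 8w and 9.86, 5.68 and 9.85 TPM in MDZ 8w. Control 8w replicate 1 had 0.271 TPM of Npy and replicates 2 and 3 were listed at 0. Of 9 markers tested in MDZ 8w against Control 8w 0 passed, against 5.13% of all genes. With these replicates averaged, Npy alone of the 9 lay wholly higher and Calb2 alone wholly lower, against 39.1% of genes not overlapping. The part of interneuron RNA in the Gad1, Gad2 and Slc32a1 values was not tested.

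The chloride importer Slc12a2, on chromosome 18, had 92.6, 89.4 and 106.3 TPM in RUN MDZ 8w, 72.7, 73.9 and 65.5 TPM in MDZ 8w and 86.4, 81 and 69.5 TPM in Control 8w. RUN MDZ 8w lay above both other groups. The log2 fold change was 0.44 ± 0.18 in RUN MDZ 8w against MDZ 8w and -0.19 ± 0.20 in MDZ 8w against Control 8w (SE, adjusted p = 0.476 and 0.608 with limma). The exporter Slc12a5 had 15.4, 6.11 and 7.75 TPM in RUN MDZ 8w and 8.18, 4.47 and 2.58 TPM in MDZ 8w, whereas Control 8w replicate 1 had 6.74 TPM and replicates 2 and 3 were listed at 0. The groups overlapped through Control 8w replicate 1. For RUN MDZ 8w against Control 8w the log2 fold change of Slc12a5 was 1.85 ± 0.94 (SE, adjusted p = 0.238 with limma), and -0.24 under quantile normalization. Without Control 8w replicate 1 the adjusted p was 0.0158, but the control was then 1 averaged sample listed at 0, with its spread taken from the exposed groups, so no fold is given. Slc12a5 reached 16.6%, 6.84% and 7.29% of the Slc12a2 level in RUN MDZ 8w, 11.2%, 6.05% and 3.93% in MDZ 8w, and 7.80% in Control 8w replicate 1, so the importer exceeded the exporter in each 8-week library.

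**Figure D3:**
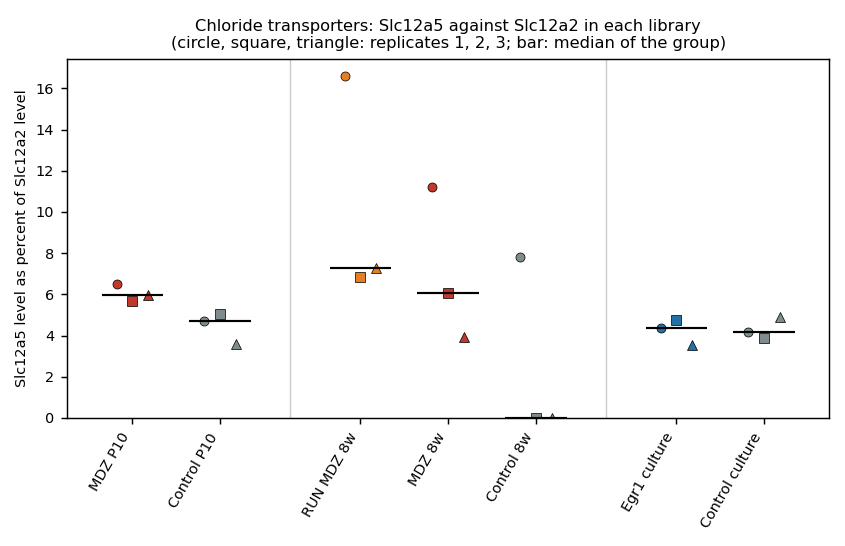
Slc12a5 as a percentage of Slc12a2 within each library (vertical axis), by group, with a marker shape for each replicate number and a bar at the median. Slc12a5 stayed at or under 16.6% of Slc12a2 in all 21 libraries, the highest being RUN MDZ 8w replicate 1.

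Dbi, the endozepine precursor, had 1325, 1558 and 1096 TPM in RUN MDZ 8w, 1378, 1145 and 968.3 TPM in MDZ 8w and 345.3, 801.8 and 797.7 TPM in Control 8w. All exposed libraries were above all controls, and the exposed groups overlapped. Dbi rose in RUN MDZ 8w against Control 8w by 1.32 ± 0.35 (SE, log2, adjusted p = 0.048 with limma), and in MDZ 8w against Control 8w the value was 1.13 ± 0.35 (adjusted p = 0.109). In RUN MDZ 8w against MDZ 8w the Dbi value was 0.19 ± 0.31 (SE, adjusted p = 0.956 with limma). The comparison of RUN MDZ 8w with Control 8w passed without Control 8w replicate 2 or 3. It missed the threshold without any MDZ 8w or RUN MDZ 8w library. Over all 9 libraries left out in turn, those that passed included, the adjusted p-values with limma ran from 0.0462 to 0.118. Without Control 8w replicate 1 the log2 fold change was 0.71 (adjusted p = 0.0812). Stem cell markers summed to 1836 to 2165 TPM in RUN MDZ 8w, 2143 to 3561 TPM in MDZ 8w and 1320 to 1512 TPM in Control 8w. Astrocyte markers summed to 2932 to 3747 TPM in RUN MDZ 8w, 2052 to 2316 TPM in MDZ 8w and 1036 to 1443 TPM in Control 8w. Both sums were higher in the exposed groups than in Control 8w, as Dbi was. Within Control 8w, replicate 1 had the lowest Dbi, the lowest stem cell sum (1320 TPM) and the highest astrocyte sum (1443 TPM). The part of these cells in the Dbi values was not tested.

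Tspo ran the other way, with 36.3, 34.6 and 9.78 TPM in RUN MDZ 8w, 22, 49.5 and 49.2 TPM in MDZ 8w and 71.8, 58.3 and 53.3 TPM in Control 8w. Every exposed library lay below every control library. The differences did not pass, at -1.40 ± 0.62 (adjusted p = 0.19) in RUN MDZ 8w and -0.73 ± 0.62 (adjusted p = 0.509) in MDZ 8w against Control 8w (SE, log2, limma). Without RUN MDZ 8w replicate 3 the first was -0.82, and without MDZ 8w replicate 1 the second was -0.35. Microglia, which express Tspo, gave marker sums of 12.48 to 95 TPM in RUN MDZ 8w, 47.55 to 169.1 TPM in MDZ 8w and 0.0381 to 161.5 TPM in Control 8w over 8 markers. In Control 8w replicate 1, 7 of the 8 (Aif1, Cx3cr1, Tmem119, P2ry12, C1qa, Tyrobp and Trem2) were listed at 0, which may be failed estimates, while replicates 2 and 3 had sums of 161.3 TPM or more. Endothelial markers, another Tspo-expressing type, summed to 807.1 to 1087 TPM in RUN MDZ 8w, 273.6 to 325 TPM in MDZ 8w and 325.7 to 518.3 TPM in Control 8w. Pericyte, smooth muscle and fibroblast markers summed to 2150 to 3027 TPM in RUN MDZ 8w, 596.8 to 1288 TPM in MDZ 8w and 2341 to 3458 TPM in Control 8w. The part of these cell types in the Tspo values was not tested.

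Among the 74 other genes of GABA, glutamate and chloride handling, 68 were tested at 8 weeks. In RUN MDZ 8w against Control 8w 15 rose and 0 fell, against 1437 and 290 of all 15264 genes tested. In MDZ 8w against Control 8w 6 rose and 0 fell, against 714 and 69 of all genes. In RUN MDZ 8w against MDZ 8w 0 passed, against 0.157% of all genes. There, 9 had an unadjusted p below 0.05 with limma, against 1523 of all genes. The median log2 fold change of the 68 was 0.53 in RUN MDZ 8w against Control 8w and 0.35 in MDZ 8w against Control 8w, next to 0.51 and 0.36 for all genes. The GABA-A receptor subunit genes Gabra4 and Gabrg1 passed in both comparisons with Control 8w. Gabra4 had 25.6, 19.8 and 25.9 TPM in RUN MDZ 8w and 22.5, 22 and 20.1 TPM in MDZ 8w, and was listed at 0 in all 3 Control 8w libraries. Gabrg1 had 29.3, 19.6 and 18 TPM in RUN MDZ 8w and 17.7, 11.1 and 8.85 TPM in MDZ 8w, and was likewise listed at 0 in Control 8w. Downstream of Abat in the GABA shunt, succinate semialdehyde dehydrogenase (Aldh5a1) rose in RUN MDZ 8w against Control 8w (1.88 ± 0.39, SE, adjusted p = 0.024 with limma), as did glutamine synthetase (Glul, 1.02 ± 0.24, adjusted p = 0.0341). Other genes that rose in that comparison were the glutamate transporters Slc1a2 (1.35) and Slc1a3 (0.64), the polyamine acetyltransferase Sat1 (1.62), the taurine transporter Slc6a6 (1.10) and the acyl-CoA-binding gene Acbd3 (2.28), of which Slc1a3 (0.64), Sat1 (1.18) and Acbd3 (2.11) also rose in MDZ 8w against Control 8w. The anion transporter Slc26a11, which passed in both comparisons, had 10.7, 18.4 and 18 TPM in RUN MDZ 8w and 11.8, 5.1 and 6.47 TPM in MDZ 8w, and was listed at 0 in Control 8w. The subunit gene Gabra5, the glutaminase Gls2 and the steroid dehydrogenase Akr1c14 rose in RUN MDZ 8w and were also listed at 0 in all 3 Control 8w libraries. Gabra3, another subunit gene that rose, had 45.1, 14.4 and 20 TPM in RUN MDZ 8w and 0.0396, 0.248 and a listed 0 TPM in Control 8w.

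In culture the Egr1 lentivirus went with higher Egr1, at 1769, 1390 and 1291 TPM in Egr1 culture and 360.7, 284.7 and 344.3 TPM in Control culture. Of the 9 genes, Abat fell, and Tspo and Gad1 rose. Gad2 and Slc32a1 were below a mean of 1 TPM and were not tested. Gad2 was listed at 0 in 2 of 3 Egr1 culture and 2 of 3 Control culture libraries, and Slc32a1 in 2 of 3 and 3 of 3. Of the 7 genes tested, 3 passed, against 44.2% of the 12402 genes tested, and 4 had groups that did not overlap, against 55.5% of all genes. The shares among the 7 thus lay near the background of a table in which 1888 genes rose and 3598 fell. Their median log2 fold change was -0.07, against -0.10 for all genes, which median-of-ratios scaling set to 0.0053.

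Abat had 16.6, 16 and 15.7 TPM in Egr1 culture and 40.6, 35.3 and 40.9 TPM in Control culture. The Egr1 libraries were tightly grouped and far below every control library, with means of 16.1 ± 0.48 TPM in Egr1 culture and 38.95 ± 3.16 TPM in Control culture (SD, n = 3 each). Abat fell by 1.22 ± 0.08 on the log2 scale (SE, adjusted p = 9.28e-06 with limma), and passed without each library in turn and in all 7 other settings tried. Mature astrocyte markers summed to 379.4 to 419.8 TPM in Egr1 culture and 538.2 to 562.6 TPM in Control culture over 9 genes, with Gjb6 at 0 in all 6 libraries, and 2 of the 7 tested rose while 2 fell. Their part in the Abat result was not tested.

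Tspo had 12.7, 12.3 and 11.8 TPM in Egr1 culture and 8.17, 5.41 and 4.11 TPM in Control culture. The groups did not overlap, and controls varied more than Egr1 libraries. Tspo rose by 0.99 ± 0.19 (SE, log2, adjusted p = 0.00308 with limma), and passed without each library in turn and in all 7 other settings. Microglial markers summed to 1.85 to 2.78 TPM in Egr1 culture and 3.46 to 3.72 TPM in Control culture. Aif1, Cx3cr1, C1qa and Tyrobp were listed at 0 in all 6 libraries, so the microglial markers were near 0 in both groups. Pericyte, smooth muscle and fibroblast markers summed to 142.1 to 178.4 TPM in Egr1 culture and 2.99 to 3.86 TPM in Control culture. The 2 of them tested, Dcn and Acta2, rose. Endothelial markers summed to 1.25 to 3.17 TPM in Egr1 culture and 7.645 to 9.57 TPM in Control culture. The part of these cell types in the Tspo result was not tested.

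Gad1, whose promoter window holds the Egr1 motif letters, had 6.53, 6.67 and 5.97 TPM in Egr1 culture and 4.67, 3.79 and 5.03 TPM in Control culture. Every Egr1 library exceeded every control library, by 0.43 ± 0.12 on the log2 scale (SE, adjusted p = 0.0195 with limma). The call was lost without Control culture replicate 2 (0.34, adjusted p = 0.0694), without Egr1 culture replicate 1 (adjusted p = 0.0537) or without Egr1 culture replicate 2 (adjusted p = 0.066). Interneuron markers were Calb2 above all, at 162.8, 135.5 and 132.2 TPM in Egr1 culture and 1.35, 0.894 and 1.15 TPM in Control culture. Sst, Vip, Npy, Lhx6, Dlx5 and Dlx6 were listed at 0 in all 6 libraries. Summed over 14 markers the levels were 135.1 to 166.3 TPM in Egr1 culture and 7.36 to 9.40 TPM in Control culture, and their part in the Gad1 result was not tested.

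Slc6a11 had 82.4, 82.7 and 66.7 TPM in Egr1 culture and 90.5, 83.2 and 98.7 TPM in Control culture. The groups did not overlap, by a narrow margin, and the log2 fold change of -0.23 ± 0.10 (SE) had an adjusted p of 0.0854 with limma.

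The chloride carriers and Dbi had overlapping levels in the cultures. Slc12a2 had 45, 45.5 and 38.5 TPM in Egr1 culture and 45, 39.9 and 51 TPM in Control culture, with a log2 interval from -0.31 to 0.17. Slc12a5 had 1.97, 2.16 and 1.37 TPM in Egr1 culture and 1.88, 1.55 and 2.51 TPM in Control culture, which was 3.54% to 4.75% of Slc12a2 in Egr1 culture and 3.89% to 4.92% in Control culture. Dbi had 1957, 2032 and 2209 TPM in Egr1 culture and 2010, 2180 and 2137 TPM in Control culture, with a log2 interval from -0.18 to 0.12. The sign of each small difference depended on the scaling or weighting.

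**Figure D4:**
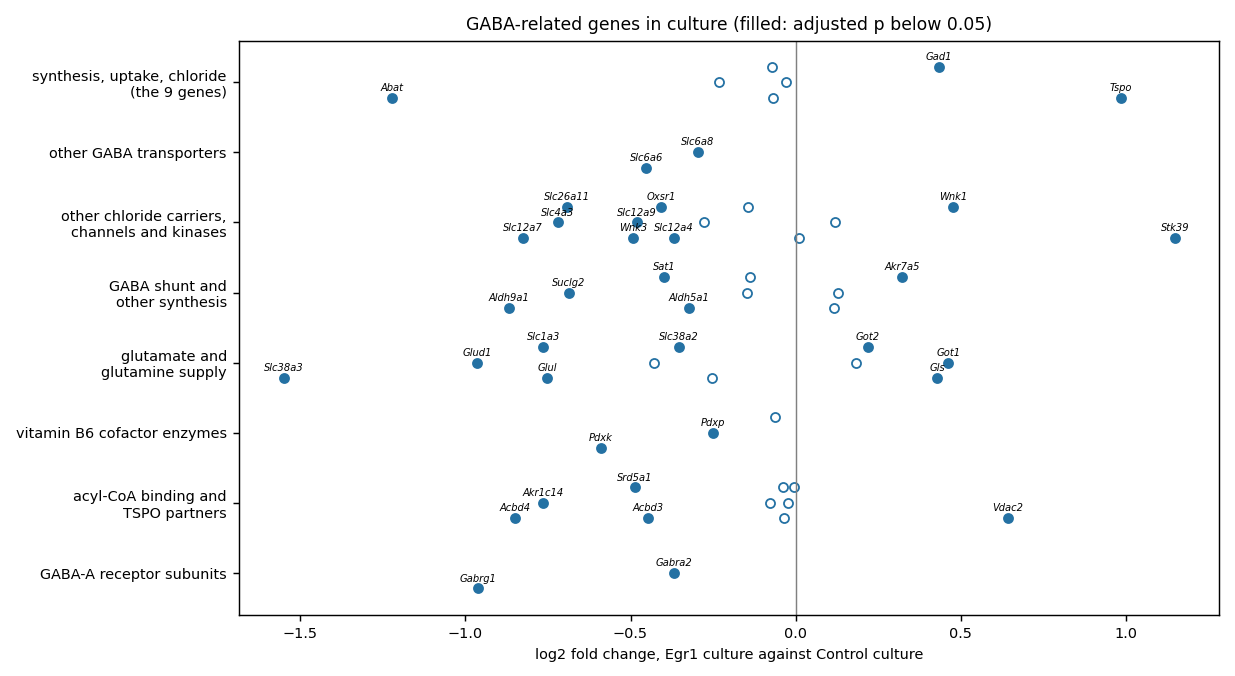
log2 fold changes, Egr1 culture against Control culture (horizontal axis), of the tested members of the 9 genes and of 7 lists of related genes (rows), filled and named at an adjusted p below 0.05 with limma. Abat (-1.22) and Slc38a3 (-1.55) lie farthest left, and Tspo (0.99) and Stk39 (1.15) farthest right.

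Of the 74 related genes, 50 were tested in culture. Of these 7 rose and 26 fell, against 1888 and 3598 of all 12402 genes tested, of which 44.2% passed. The median log2 fold change of the 50 was -0.31, against -0.10 for all genes. In the list around Abat and its shunt 9 genes were tested, of which 4 fell and 1 rose. Aldh9a1 (-0.87), an enzyme of another route to GABA, Suclg2 (-0.69), a succinyl-CoA ligase subunit, and Sat1 (-0.40), a polyamine acetyltransferase, fell. Aldh5a1, downstream of Abat, also fell, with 18.7, 17 and 15.2 TPM in Egr1 culture and 20.7, 20.6 and 23.2 TPM in Control culture. Akr7a5, an aldo-keto reductase, rose (0.32). Of 11 genes of glutamate and glutamine supply 5 fell and 3 rose, and the 4 with the smallest adjusted p-values were the glutamine transporter Slc38a3 (-1.55), glutamate dehydrogenase Glud1 (-0.97), Glul (-0.75) and the glutamate transporter Slc1a3 (-0.76). Slc38a3 had 18, 21.7 and 22.3 TPM in Egr1 culture and 61.7, 61.2 and 63.7 TPM in Control culture. Of 13 chloride carriers, channels and kinases 7 fell and 2 rose, and Stk39, the kinase SPAK that phosphorylates Slc12a2 and Slc12a5, had 37.6, 36.3 and 32.2 TPM in Egr1 culture and 14.8, 15.9 and 15.5 TPM in Control culture (1.15 ± 0.08, SE, adjusted p = 1.45e-05 with limma). Among those that fell were the chloride exporter Slc12a7 (-0.83), the anion exchanger Slc4a3 (-0.72) and the kinase Wnk3 (-0.49). Both GABA-A subunit genes counted, Gabrg1 (-0.96) and Gabra2 (-0.37), fell, as did both related transporters counted, Slc6a6 (-0.45) and the creatine transporter Slc6a8 (-0.30). Pyridoxal kinase, Pdxk (-0.59), and the phosphatase Pdxp (-0.25), which act on the vitamin B6 cofactor of the decarboxylases and of Abat, fell too. Among the acyl-CoA and Tspo partners 4 of 10 fell, with Akr1c14 (-0.76), Srd5a1 (-0.49) and Acbd3 (-0.45) among them, and the mitochondrial channel Vdac2 rose (0.64).

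The genes whose levels ran most like each of the 9 were taken over 20 samples, with log2(value + 1) centred within each table, for the 7 genes measured at a mean of at least 1 in all tables. They share libraries and depth, so the values are descriptions. The 2 Control 8w samples were far apart for Gad1, Abat and Slc12a5. Samples that far apart can carry much of an r over 20 samples, and r without them was not computed. Gad1 ran closest to Chpf2 (Pearson r = 0.988), Rnf139 (0.986) and Upf3b (0.985). Slc6a11 ran closest to Elovl5 (0.959), AW549877 (0.93) and the astrocyte connexin Gja1 (0.926). Abat ran closest to Trib2 (0.976), Plod1 (0.971) and B4galt2 (0.968), and Slc12a5 to Arhgap31 (0.976), Ncald (0.958) and Wipf1 (0.953). For Dbi the genes were Cinp (0.947), 1700066M21Rik (0.945) and Ghitm (0.943), for Tspo Wbp1 (0.865), Cdk4 (0.845) and Thtpa (0.826), and for Slc12a2 Ick (0.854), Frmd4a (0.798) and Sirt2 (0.795). Among the 7 themselves, Gad1 with Dbi (0.90) and Abat with Slc12a5 (0.86) were the closest pairs, and Tspo was negative with each of the other 6 (-0.57 to -0.36).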

How the data were processed

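The 21 RNA sequencing libraries fall into 7 groups of 3. The authors deposited FPKM values for P10 and TPM values for 8-week and culture libraries, a unit read from the values (TPM columns share a total, FPKM columns do not) because no label gives it. Reads were processed with TopHat, Bowtie2 and DESeq2 on mm10, per the submitters' processing notes. How genes were counted, the annotation, strand setting and filters were not given in the sources used here, so values of overlapping or duplicated genes are uncertain. Depth per library is unknown, and no counting interval was computed.

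From these values log2(value + 1) was fitted with limma-trend (limma 3.58.1 and version 1.17.8 of data.table in R 4.3.3) over every gene whose mean over the fit was 1 or more, with Benjamini-Hochberg adjustment and a threshold of 0.05. Fold changes on this scale understate those of low genes. The P10 and culture fits used 6 libraries each, and the 8-week fit used 3 groups with 1 spread. The script was tested on simulated data. Control 8w replicates 2 and 3 were averaged.

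The 9 genes, gene lists and tests were chosen with earlier results of these data known. All 9 are named in each comparison. A few related genes are not reported here and are left out of the list counts. Of the other lists, genes past the threshold are named, at most 4 per list by adjusted p, with Aldh5a1 added in culture. For likeness the 3 genes with the highest r among those with a mean of at least 10 are named. Deviations of same-numbered replicates correlated weakly (-0.0771 to 0.133), so no block entered the main fits. In MDZ 8w against Control 8w each MDZ 8w library still correlated best with the control of its own number (0.0575, 0.0477 and 0.00807). So did numbers 1 and 2 in RUN MDZ 8w against MDZ 8w, number 1 in RUN MDZ 8w against Control 8w and number 2 at P10. No number did in culture. Alternatives were pseudocounts of 0.1 and 5, no filter, median-of-ratios scaling, quantile normalization, library quality weights, replicate block, unmerged controls, the 2 groups alone, and each library left out. The 10 ATAC and ChIP samples of the 31 listed were not analysed here.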

Additional observations from a re-analysis of the deposited data

How the results depend on the processing

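In MDZ P10 against Control P10, 1 gene of all passed, against 2 with a pseudocount of 5, 0 with median-of-ratios scaling, 4 with quantile normalization and 5 with library quality weights, and 0 to 101 with a library left out. In MDZ 8w against Control 8w 783 passed, against 1410 and 461 with pseudocounts of 0.1 and 5, 152 with quantile normalization, 19 with weights, 1787 with Control 8w replicates 2 and 3 kept apart, and 207 to 2928 with a library left out (2928 without Control 8w replicate 1). In RUN MDZ 8w against MDZ 8w 24 passed, against 432 with weights, 122 with the controls kept apart, 360 with the groups alone and 0 to 275 with a library left out. In RUN MDZ 8w against Control 8w 1727 passed, against 406 with quantile normalization, 0 with weights, 2904 with the controls kept apart, 0 with the groups alone and 910 to 3952 with a library left out (3952 without Control 8w replicate 1). In culture 5486 passed, and 4383 to 5012 with a library left out. With same-numbered replicates as a replicate block the counts were 0 at P10, 1227, 14 and 2595 in the 8-week comparisons in the order above (controls kept apart), and among the 9 genes the block gave 2 calls in MDZ 8w against Control 8w (Gad2 and Slc6a11) and an adjusted p of 0.0509 for Gad1 in culture.

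Of the 9 genes, 0 passed in MDZ 8w against Control 8w, against 2 (Gad2 and Slc6a11) with a pseudocount of 0.1, with controls kept apart and with the groups alone, and 0 to 3 with a library left out. In RUN MDZ 8w against Control 8w 3 passed, against 1 (Slc6a11) with a pseudocount of 5, no filter, median-of-ratios scaling or quantile normalization, 0 with weights or the groups alone, and 1 to 4 with a library left out. In culture 2 to 3 passed, and at P10 and in RUN MDZ 8w against MDZ 8w 0, with a library left out. Some signs turned, for small differences and for larger ones. With weights they turned for Slc12a2 at P10 (0.0435) and for Slc12a2 (0.0058) and Slc12a5 (0.0627) in culture. Quantile normalization turned larger values against Control 8w. In RUN MDZ 8w, Gad2, which had passed, went from 2.96 to -0.49 and Slc12a5 from 1.85 to -0.24. In MDZ 8w, Slc12a5 went from 1.02 to -0.68. Quantile normalization also turned Slc12a2 in culture (0.0054). With median-of-ratios scaling Dbi (0.0814) and Slc12a2 (0.0395) turned in culture. With a library left out, log2 fold changes ran from -0.084 to 0.0635 for Slc6a11, -0.19 to 0.12 for Slc12a2 and -0.0022 to 0.22 for Dbi at P10, from -0.70 to 0.27 for Gad2 in RUN MDZ 8w against MDZ 8w, and from -0.1557 to 0.0173 for Slc12a2, -0.178 to 0.052 for Slc12a5 and -0.0796 to 0.0077 for Dbi in culture. The causes were not tested. Of the alternative values of single genes, 598 kept direction and side of the threshold, 19 came to pass it, 31 lost it and 20 turned sign. Unknown depth, 2 effective Control 8w samples and listed zeros limit the 8-week values.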
